A study of Mus musculus with 24 samples.

Results

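The 9 chemokine receptor genes described here are Ccr2, Ccr4, Ccr6, Ccr8, Ccr9, Cxcr3, Cxcr5, Cxcr6 and Cx3cr1. They were chosen by name as receptors of effector T cell trafficking, with earlier results of these data known. They are 9 of 35868 gene symbols measured. Their transcripts were read in 24 RNA sequencing libraries of splenic CD4+ or CD8+ T cells, sorted from 8 groups of 3. The study asked how overexpressed β-catenin alters T cells that are transplanted into a mismatched host.

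Chemokine receptors are G protein coupled receptors that steer a migrating cell along a chemokine gradient. Naive T cells carry receptors for lymph node entry, and activated effector cells replace them with receptors for inflamed tissue, gut, skin or liver. In graft-versus-host disease these receptors are known to bring donor T cells to the organs that they damage.

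All mice that gave T cells were of the C57BL/6 background. Cat-Tg donors carried 1 transgene, a human β-catenin lacking part of its N-terminus, built in the p1017 vector, which holds the proximal Lck promoter and drives expression in T lineage cells. They had been made in FVB and backcrossed, and were kept heterozygous. WT donors lacked the transgene. The pre-tx libraries are of fresh spleens. The post-tx libraries are of donor cells recovered on day 7 from spleens of lethally irradiated BALB/c recipients, which had also received T cell-depleted WT marrow. By the methods, donor CD4+ and CD8+ cells were mixed before transfer, and donor cells were sorted by their MHC class I haplotype. The methods have CD4+ and CD8+ cells sorted from each mouse, so CD4+ and CD8+ libraries of a group share mice, and the tests of CD8+ against CD4+ treat all libraries as independent. Where the labels do not name separate mice, p-values measure only the spread between these libraries. Any difference in handling between the Cat-Tg and WT libraries cannot be told apart from genotype.

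Values are CPM (counts scaled to a common library total), that is, estimated counts summed over the transcripts of a gene and scaled by TMM-normalized library totals. Library totals ranged from 11135713 to 50519825, where 3 counts equal between 0.0596 and 0.27 CPM; such floors cover counting error only. A gene passed the test at an adjusted p of at most 0.05 in edgeR's quasi-likelihood test (Benjamini-Hochberg over all genes tested) with at least a 2 fold difference, and "rose" and "fell" are used only of genes that passed. All 9 receptors passed the low count filter in every fit.

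The 6 libraries labelled WT pre-tx stand apart from their labels. Of the summed Cd4 and Cd8a counts, Cd8a made up 57.4% ± 7.01 (SD, n = 3) in the 3 CD8 pre-tx libraries labelled WT and 60.9% ± 7.37 in their 3 CD4 counterparts. In the other 6 groups the share was between 99.4% and 99.7% for CD8+ libraries and between 0.318% and 2.39% for CD4+ libraries. The 12 B cell markers summed to between 5220 and 8460 CPM in the libraries labelled WT pre-tx, with none at 0, against 180 to 650 CPM in Cat-Tg pre-tx and 20.2 to 97.5 CPM post-tx. The 12 T cell markers summed to 1980 to 3530 CPM in the libraries labelled WT pre-tx and to 5400 to 16000 CPM elsewhere. Cat-Tg CD4 post-tx libraries held 2990 to 4560 CPM of 12 monocyte and macrophage markers, against 861 to 1240 CPM in WT CD4 post-tx. Their 8 red cell markers reached 4550 to 27100 CPM, against 648 to 1100 CPM. WT CD8 post-tx replicate 2 also stood apart from its group, as the values below show.

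**Figure D1:**
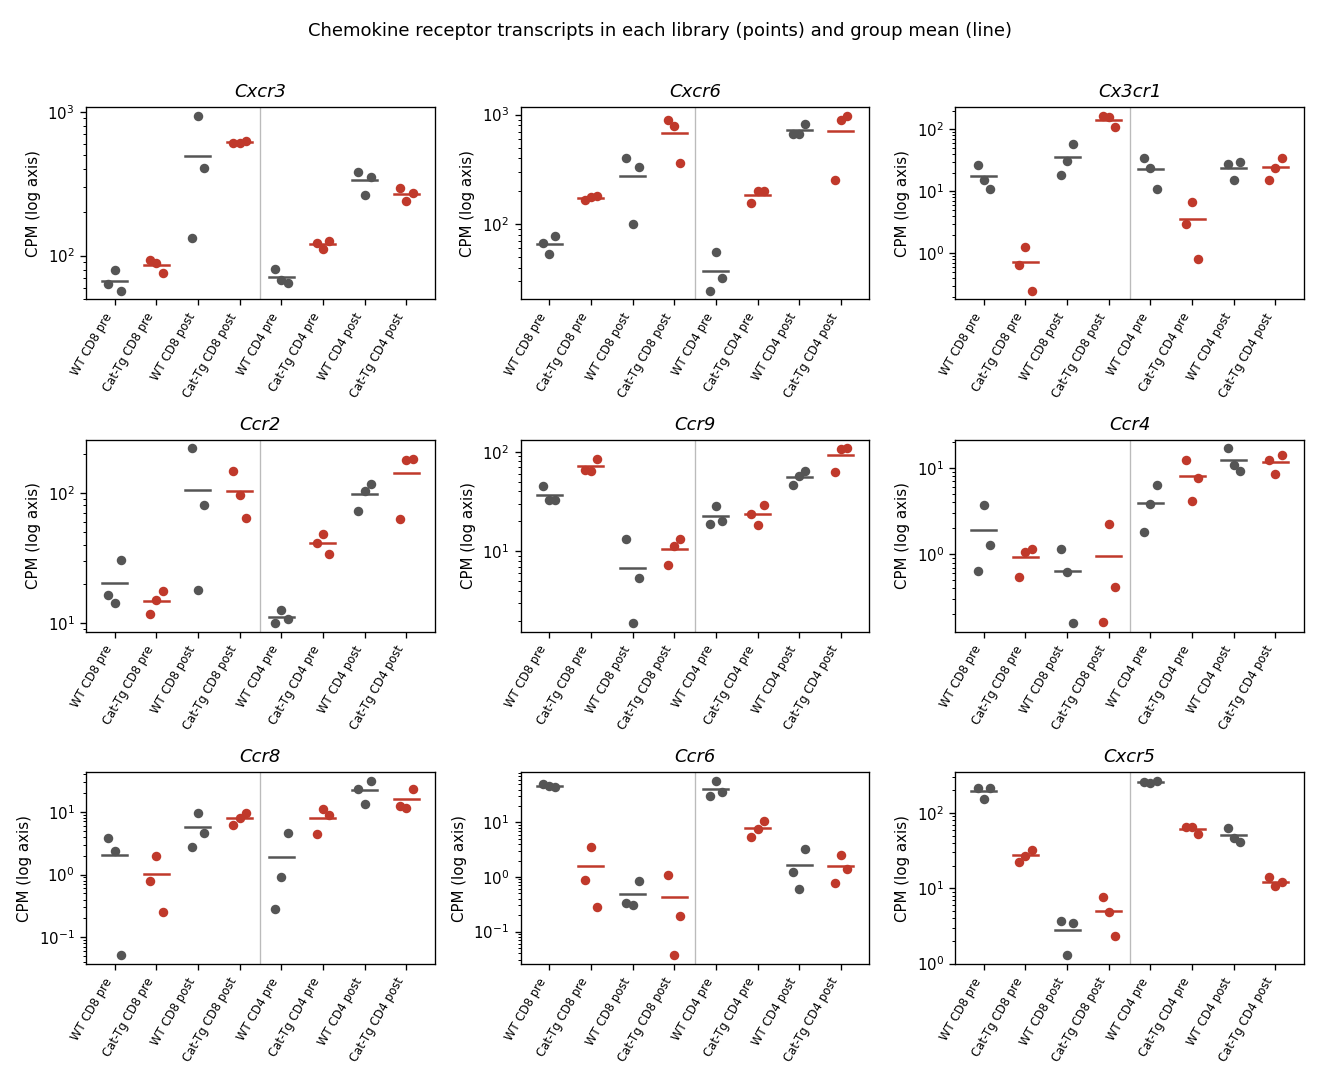
Level of each receptor in every library, as CPM on a log axis, by group (WT grey, Cat-Tg red; 3 points per group, with a line at the mean). Cx3cr1 spans the widest range of group means, from 0.711 CPM in Cat-Tg CD8 pre-tx to 144 CPM in Cat-Tg CD8 post-tx.

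Cx3cr1, the receptor for the membrane-bound chemokine fractalkine and a mark of cytotoxic effector CD8+ T cells, showed the largest difference of the 9. Its level in Cat-Tg CD8 pre-tx was 0.647, 1.24 and 0.25 CPM, and post-tx it was 165, 157 and 111 CPM. The lowest post-tx library lay far above the highest pre-tx library. Cx3cr1 rose 204-fold (log2 fold change 7.67, SE 0.758, adjusted p 2.32e-05 in edgeR's test), and without Cat-Tg CD8 pre-tx replicate 2 the log2 difference was 8.33. In bulk RNA, more cells of a type and more RNA per cell cannot be told apart. In WT CD8 post-tx the levels were 18.1, 31.1 and 57.9 CPM, all below the Cat-Tg libraries. That difference between Cat-Tg and WT was 3.79-fold (log2 fold change 1.92, SE 0.578) and did not pass the test, with an adjusted p of 0.0966. It passed in DESeq2 (1.80, adjusted p 0.0254), in limma-voom (2.02, adjusted p 0.0433) and without the filter on low counts (2.02, adjusted p 0.0249). Without WT CD8 post-tx replicate 2 it was 1.93 (adjusted p 0.103). Other cells also carry Cx3cr1. The 12 monocyte and macrophage markers had a median log2 difference of 1.76 between Cat-Tg and WT CD8 post-tx, with 1 called higher, Lyz2, at 68.3, 99.3 and 143 CPM against 15.5, 26.2 and 12 CPM. Their sums overlapped (996 to 1720 CPM against 1020 to 1540 CPM), and most of each sum was Ly6c2. The 6 NK cell markers summed to 35.1 to 40.7 CPM and 11.8 to 36 CPM (median log2 difference -0.51, 0 called). The 8 dendritic cell markers summed to 271 to 361 CPM and 48.2 to 112 CPM, without overlap (median log2 difference -1.70, 1 called higher). The part of these cells in the Cx3cr1 difference was not tested.

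In CD4+ cells Cx3cr1 reached lower levels. Cat-Tg CD4 libraries held 2.99, 6.84 and 0.808 CPM pre-tx and 15.5, 24.1 and 34.4 CPM post-tx, without overlap, and Cx3cr1 rose 5.54-fold (log2 fold change 2.47, adjusted p 0.00499 in edgeR; 3.35 without Cat-Tg CD4 pre-tx replicate 2). WT CD4 post-tx libraries held 27.4, 15.5 and 29.8 CPM, which overlap the Cat-Tg libraries. The monocyte and macrophage markers were higher in Cat-Tg CD4 post-tx by the ranges given above, and their part in these levels was not tested. The post-tx minus pre-tx difference in Cat-Tg cells was larger in CD8+ than in CD4+ by 4.87 on the log2 scale (SE 0.917, adjusted p 0.00644 in edgeR, interaction), a contrast between Cat-Tg libraries alone, in a fit of all 24; in limma-voom its adjusted p was 0.0571. Of the 9 receptors, 2 passed this comparison, where 0.948% of all genes did, and the other was Ccr9. Directly, Cx3cr1 was 5.84-fold higher in CD8+ than in CD4+ Cat-Tg post-tx (adjusted p 0.0136), and this call was lost without Cat-Tg CD4 post-tx replicate 1 or 2 (adjusted p 0.0503 and 0.0633).

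Cxcr3, the receptor for the interferon-induced chemokines Cxcl9 and Cxcl10, is carried by type 1 effector T cells. It stood at 93.2, 88.6 and 75.7 CPM in Cat-Tg CD8 pre-tx and 602, 610 and 627 CPM post-tx, and rose 7.21-fold (log2 fold change 2.85, SE 0.524, adjusted p 0.00282 in edgeR). WT CD8 post-tx held 132, 934 and 408 CPM against 63, 79.8 and 57.2 CPM in the CD8 pre-tx libraries labelled WT. All 3 WT post-tx libraries lay above all 3 pre-tx libraries, and the post-tx replicates lay far apart. Cxcr3 rose there too (log2 fold change 3.01, adjusted p 0.00078), and without WT CD8 post-tx replicate 2 by 1.93 (adjusted p 0.00248). T cell markers rose with it, 9 of 12 (median log2 difference 2.54), and their part was not tested. Between Cat-Tg and WT CD8 post-tx the log2 difference of Cxcr3 was 0.24 (SE 0.489, adjusted p 0.829), and without that replicate 1.19 (adjusted p 0.122). In CD4+ cells Cxcr3 stood at 123, 111 and 127 CPM in Cat-Tg pre-tx and 296, 239 and 271 CPM post-tx, a log2 difference of 0.83 with adjusted p 0.00595, which missed the fold threshold. It passed in DESeq2 (1.08, adjusted p 0.000151), with DESeq2's size factors (1.08, adjusted p 0.00231), without the filter (1.16, adjusted p 0.000626) and without the libraries labelled WT pre-tx (1.17, adjusted p 0.00144).

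Cxcr6, the receptor for Cxcl16 and a mark of liver-homing and tissue-resident T cells, had the highest mean TPM of the 9 receptors, a level per length, in 5 of the 8 groups. In Cat-Tg CD8 post-tx it was at 337 TPM and Cxcr3 at 335 TPM, within their spread. Before transplantation the Cat-Tg CD4 libraries held 157, 199 and 202 CPM, against 24.8, 56.1 and 32.2 CPM in the CD4 pre-tx libraries labelled WT, and the groups did not overlap. Cxcr6 was 5.79-fold higher (log2 fold change 2.53, SE 0.405, adjusted p 0.000482 in edgeR). Cat-Tg CD8 pre-tx held 165, 178 and 181 CPM and the CD8 pre-tx libraries labelled WT 66.8, 53 and 77.5 CPM, a log2 difference of 1.43 that did not pass the test (adjusted p 0.0683). It passed in DESeq2 (1.43, adjusted p 0.0197) and in a fit of only the 6 libraries compared (1.48, adjusted p 0.00449). T cell markers were also higher in Cat-Tg pre-tx, with 8 of 12 called in CD4+ and 7 in CD8+ (median log2 differences 1.33 and 1.89). Their part in the Cxcr6 differences was not tested. After transplantation Cxcr6 stood at 897, 790 and 362 CPM in Cat-Tg CD8 and 398, 100 and 330 CPM in WT CD8, with overlap (log2 difference 1.22, adjusted p 0.184). Cxcr6 rose 3.94-fold in Cat-Tg CD8 from pre-tx to post-tx (adjusted p 0.0131), a call that was lost without any 1 of 5 of the 6 libraries (Cat-Tg CD8 pre-tx replicate 1, 2 or 3, or post-tx replicate 1 or 2; adjusted p between 0.0515 and 0.0599). It rose 3-fold in Cat-Tg CD4 (255, 898 and 971 CPM post-tx, adjusted p 0.00478). Without Cat-Tg CD4 post-tx replicate 1, the library with the lowest total, the log2 difference there was 1.98 (adjusted p 0.000165). In WT post-tx, Cxcr6 was 2.61-fold lower in CD8+ than in CD4+ (668, 670 and 822 CPM; log2 fold change -1.38, adjusted p 0.0454). That call was lost in 5 of 6 fits with 1 library left out, without WT CD4 post-tx replicate 1, 2 or 3 or WT CD8 post-tx replicate 2 or 3 (adjusted p between 0.0759 and 0.301, the highest without WT CD8 post-tx replicate 2, where the log2 difference was -0.78), and with a replicate block (-1.59, adjusted p 0.0726).

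Ccr2, the receptor for monocyte chemoattractant chemokines such as Ccl2, is known for bringing inflammatory cells and donor CD8+ T cells into tissue. Cat-Tg CD8 libraries held 11.6, 15.1 and 17.6 CPM pre-tx and 148, 96.8 and 64.5 CPM post-tx, without overlap. Ccr2 rose 7.03-fold (log2 fold change 2.81, SE 0.689, adjusted p 0.0149 in edgeR), and the call was lost without any Cat-Tg CD8 pre-tx library or without post-tx replicate 1 (adjusted p between 0.052 and 0.064). The WT CD8 post-tx libraries held 220, 17.8 and 80.5 CPM, so that replicate 2 lay within the range of the WT pre-tx libraries, 14.2 to 30.4 CPM. Ccr2 rose there as well (log2 fold change 2.49, adjusted p 0.0147); without replicate 2 the difference was 2.78 (adjusted p 0.000887), and without replicate 1 it was 1.18 and no longer passed (adjusted p 0.147). It missed the threshold in limma-voom (1.92, adjusted p 0.0562) and with only the 6 libraries compared (2.39, adjusted p 0.0677). The call was also lost without the library labelled WT CD8 pre-tx replicate 1 or 2 (adjusted p 0.0598 and 0.0592). In the same comparison 9 of 12 T cell markers were called higher (median log2 difference 2.54), and their part was not tested. For Ccr2, Cat-Tg and WT CD8 post-tx overlapped (log2 difference -0.12, 95% interval -1.38 to 1.14). In CD4+ cells, Cat-Tg pre-tx held 41.2, 48.4 and 33.6 CPM against 9.99, 12.5 and 10.8 CPM in the libraries labelled WT. Ccr2 was 4.35-fold higher (adjusted p 0.000605). There 8 of 12 T cell markers were called higher as well (median log2 difference 1.33), and their part was not tested. Ccr2 rose 2.73-fold to 63.2, 180 and 181 CPM in Cat-Tg CD4 post-tx (adjusted p 0.00353). Of 12 monocyte and macrophage markers 9 were called higher over that time and 1 lower (median log2 difference 2.19). They summed to 1210 to 1840 CPM pre-tx and 2990 to 4560 CPM post-tx. Their part in the Ccr2 rise was not tested.

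Ccr9, the receptor for Ccl25 of the thymus and small intestine, moved in opposite directions in CD8+ and CD4+ libraries. In Cat-Tg CD8 it fell from 64.8, 63.5 and 84.6 CPM pre-tx to 7.2, 11.2 and 13.4 CPM post-tx (log2 fold change -2.73, SE 0.598, adjusted p 0.00829 in edgeR). In Cat-Tg CD4 it rose from 23.4, 18.2 and 28.8 CPM to 62.3, 107 and 108 CPM (log2 fold change 1.64, SE 0.306, adjusted p 0.000768). Neither pair of groups overlapped. Over that time in Cat-Tg CD4, 9 of 12 monocyte and macrophage markers were called higher and 1 lower (median log2 difference 2.19). Of 8 red cell markers 7 were called higher (3.32), and of 8 dendritic cell markers 2 higher and 3 lower (-1.87). The part of these cells in the Ccr9 rise was not tested. The difference between the 2 Ccr9 changes was -4.72 on the log2 scale (SE 0.663, adjusted p 0.00055, interaction). The changes in WT, which include the libraries labelled WT pre-tx, were a fall of 5.02-fold in CD8+ (adjusted p 0.0098) and a rise of 2.72-fold in CD4+ (adjusted p 0.00289). Post-tx, Ccr9 was lower in CD8+ than in CD4+ by 8.71-fold in Cat-Tg and by 8.16-fold in WT (adjusted p 0.000145 and 0.000163), and without WT CD8 post-tx replicate 2 the latter log2 difference was -2.35 (adjusted p 0.00118), and without replicate 1 it was -3.76, against -3.03 with all libraries. Between Cat-Tg and WT, Ccr9 passed in neither cell type at either time, with log2 differences of 0.96 and 0.56 in CD8+ cells and 0.30 and 0.50 in CD4+ cells, pre-tx and post-tx.

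**Figure D2:**
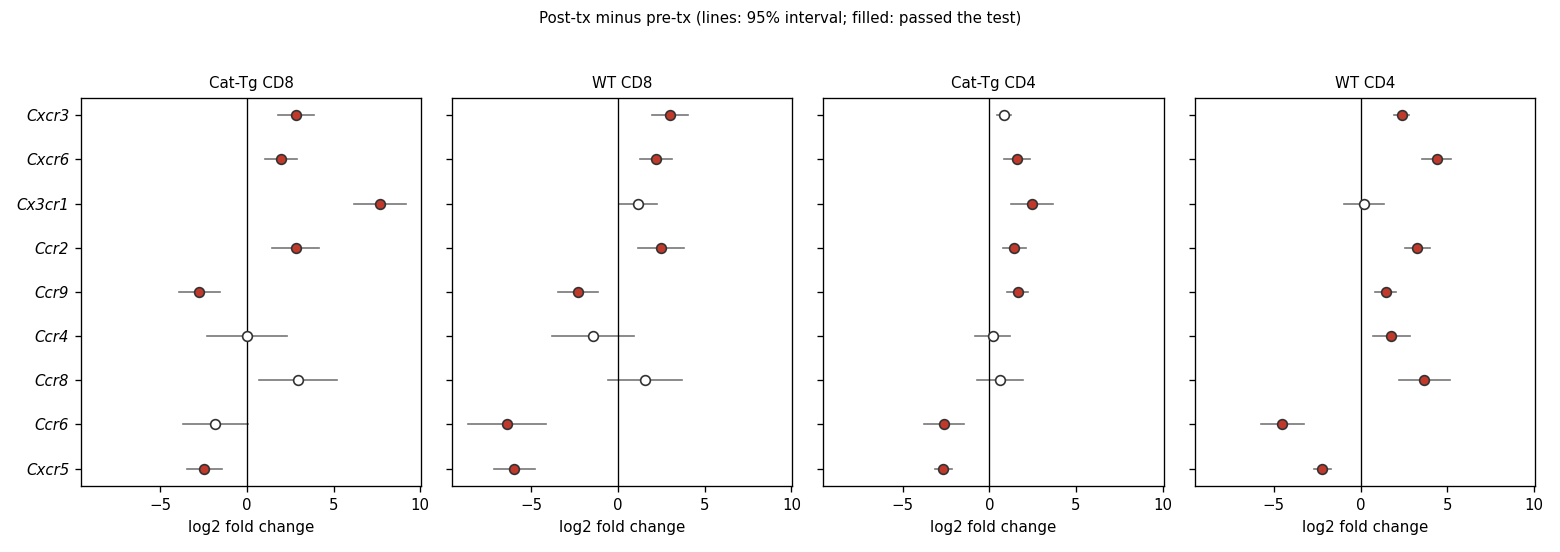
Log2 fold change of each receptor from pre-tx to post-tx in each genotype and cell type (x axis), with the 95% interval as a line; filled points passed the test. Ccr9 lies at -2.73 in Cat-Tg CD8 and at 1.64 in Cat-Tg CD4.

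Of the 9 receptors, 6 passed between post-tx and pre-tx in Cat-Tg CD8, where 14.0% of all genes did, and 6 in WT CD8, where 23.6% did. In Cat-Tg CD4 it was 6, against 40.9% of all genes, and in WT CD4 it was 8, against 22.1%. The WT comparisons use the libraries labelled WT pre-tx. In WT CD4, Cxcr6 rose 20.9-fold (adjusted p 4.63e-06 in edgeR), Ccr2 9.65-fold (adjusted p 1.34e-05) and Cxcr3 5.13-fold (adjusted p 2.71e-06). Cxcr6 rose 4.56-fold in WT CD8 (adjusted p 0.00368), and by 2.38 on the log2 scale without WT CD8 post-tx replicate 2 (adjusted p 0.00023). Of 12 T cell markers, 11 were called higher post-tx in WT CD4 (median log2 difference 1.34) and 9 in WT CD8 (2.54). Their part in the rises of receptors in WT was not tested. Cxcr5 fell 63.2-fold and Ccr6 85.6-fold in WT CD8 (adjusted p 1.12e-05 and 0.000945), and 4.66-fold and 23.1-fold in WT CD4 (adjusted p 1.34e-05 and 0.000104), where all 12 B cell markers fell as well in both cell types, and their part was not tested. Cxcr5 also fell 5.46-fold in Cat-Tg CD8 and 6.28-fold in Cat-Tg CD4 (adjusted p 0.00612 and 5e-06 in edgeR). In each of these, 11 of 12 B cell markers were called lower, and their part was not tested. Without WT CD8 post-tx replicate 2 the log2 differences of Cxcr5, Ccr6 and Ccr9 in WT CD8 were -5.85, -6.38 and -2.09 (adjusted p 7.87e-06, 0.00279 and 0.00731). Ccr9 there was -3.43 without WT CD8 post-tx replicate 1, against -2.33 with all libraries, and Ccr6 -7.34 without replicate 3, against -6.42. In WT CD4, Ccr6 was -5.33 without WT CD4 post-tx replicate 3, against -4.53.

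Ccr4, the receptor for Ccl17 and Ccl22 and a mark of skin-homing, Th2 and regulatory CD4+ T cells, was higher in the CD4+ libraries post-tx. In Cat-Tg pre-tx the log2 difference of Ccr4, CD8+ minus CD4+, was -3.14, without overlap, and did not pass (adjusted p 0.0812 in edgeR). Post-tx it stood at 12.3, 8.59 and 14.1 CPM in Cat-Tg CD4 and 0.163, 2.27 and 0.418 CPM in Cat-Tg CD8. It was 12.3-fold lower in CD8+ (adjusted p 0.014 in edgeR), a call lost without Cat-Tg CD8 post-tx replicate 1 or 3 (adjusted p 0.0667 and 0.0731). Without Cat-Tg CD8 post-tx replicate 2 the log2 difference was -5.06, against -3.62 with all libraries. In WT post-tx the CD4+ libraries held 17, 11 and 9.15 CPM and the CD8+ libraries 1.15, 0.613 and 0.159 CPM, and the fold was 19.6 (adjusted p 0.00305); without WT CD8 post-tx replicate 2 the log2 difference was -4.03 (adjusted p 0.0176), and without replicate 1 it was -4.89, against -4.29 with all libraries. From pre-tx to post-tx in WT CD4, Ccr4 rose 3.44-fold (adjusted p 0.0249), and lost the call without the library labelled WT CD4 pre-tx replicate 1 or 2 or without WT CD4 post-tx replicate 1 (adjusted p between 0.0591 and 0.1).

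Ccr8, the receptor for Ccl1, is carried by Th2 and regulatory T cells. WT CD4 post-tx libraries held 23.3, 13.1 and 31.2 CPM, against 0.285, 0.901 and 4.56 CPM in the CD4 pre-tx libraries labelled WT, and Ccr8 rose 12.7-fold (log2 fold change 3.67, adjusted p 0.00245 in edgeR). Without the library labelled WT CD4 pre-tx replicate 3 the log2 difference was 5.18 (adjusted p 0.00027). Cat-Tg CD4 libraries held 4.44, 10.9 and 8.93 CPM pre-tx and 12.3, 11.5 and 23.4 CPM post-tx, which did not pass (adjusted p 0.474). Pre-tx, Ccr8 was 4.97-fold higher in Cat-Tg CD4 than in the libraries labelled WT CD4 (adjusted p 0.0321), although the groups overlap. That call was lost without Cat-Tg CD4 pre-tx replicate 2 or 3, or without WT CD4 pre-tx replicate 1 or 2 (adjusted p between 0.0717 and 0.121). The log2 difference, 2.31 with all libraries, was 1.55 without WT CD4 pre-tx replicate 1 and 3.75 without replicate 3. The call was also lost with DESeq2's size factors (adjusted p 0.0532), without a filter (0.0696), with the stricter filter (0.0508) and with only the 6 libraries compared (0.105). Cat-Tg CD8 held 6.06, 7.87 and 9.62 CPM post-tx against 0.796, 2.01 and 0.25 CPM pre-tx, without overlap, and this did not pass (log2 difference 2.96, adjusted p 0.0892); it passed in DESeq2 (2.92, adjusted p 0.0253), without the filter on low counts (3.05, adjusted p 0.0409) and in fits of only the 6 libraries compared (2.83, adjusted p 0.0314) or without the libraries labelled WT pre-tx (2.93, adjusted p 0.0395).

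Ccr6, the receptor for Ccl20, is carried by Th17 cells and by B cells. It stood at 50.9, 47.6 and 44.4 CPM in the CD8 pre-tx libraries labelled WT and at 0.895, 3.5 and 0.285 CPM in Cat-Tg CD8 pre-tx, 29.8-fold lower (log2 fold change -4.90, adjusted p 0.00966 in edgeR). Without Cat-Tg CD8 pre-tx replicate 2 the log2 difference was -6.43 (adjusted p 0.00963). The CD4+ libraries showed 30, 58.3 and 36.7 CPM against 5.46, 7.72 and 10.7 CPM, a 4.44-fold difference (adjusted p 0.0134; lost without Cat-Tg CD4 pre-tx replicate 1 or 2 or WT CD4 pre-tx replicate 2, adjusted p between 0.0509 and 0.0608). The B cell markers moved with it, in the ranges given above, and their part was not tested. Post-tx Ccr6 lay between 0.0366 and 3.23 CPM in all 12 libraries, and Cat-Tg and WT overlapped in both cell types. In Cat-Tg CD4 it fell 6.09-fold from pre-tx (adjusted p 0.00276).

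Cxcr5, the receptor for Cxcl13, brings B cells and follicular helper T cells into follicles. In the libraries labelled WT pre-tx it reached 211, 152 and 214 CPM for CD8+ and 259, 251 and 267 CPM for CD4+, the highest levels of all groups, where the B cell markers also peak. Cat-Tg pre-tx libraries held 22, 27.2 and 32.5 CPM for CD8+ and 65.1, 65.5 and 52.8 CPM for CD4+. Cxcr5 was 6.97-fold and 3.61-fold lower (adjusted p 0.00357 and 0.000131 in edgeR). Post-tx it was the 1 receptor that passed between Cat-Tg and WT CD4, where 10.0% of all genes did. Cat-Tg CD4 post-tx held 13.9, 10.7 and 12 CPM and WT CD4 post-tx 63.3, 46.9 and 40.8 CPM, without overlap. Cxcr5 was 4.86-fold lower (log2 fold change -2.28, SE 0.251, adjusted p 0.000143), and the log2 difference stayed between -2.44 and -2.08 when each of the 6 libraries was left out. In these libraries the B cell markers summed to 64.2 to 97.5 CPM in Cat-Tg and 20.2 to 32.1 CPM in WT. Of the 12 markers, 3 were called higher and 1 lower in Cat-Tg (median log2 difference 0.65). The part of B cells in the Cxcr5 difference was not tested. In CD8 post-tx the levels were 7.72, 4.8 and 2.35 CPM in Cat-Tg and 3.65, 1.29 and 3.47 CPM in WT, with overlap. The log2 difference there was 0.73 and did not pass (adjusted p 0.435). The signed contrast of the post-tx genotype differences, 0.73 in CD8+ minus -2.28 in CD4+, was 2.86 in the fit of all 24 libraries (SE 0.54, adjusted p 0.0126, interaction), 1 receptor where 0.629% of all genes passed. It missed the threshold in limma-voom (adjusted p 0.0688), with length-scaled counts (2.08, adjusted p 0.23), with a replicate block (2.81, adjusted p 0.082) and without Cat-Tg CD8 post-tx replicate 1 (2.39, adjusted p 0.0676). In Cat-Tg post-tx, Cxcr5 was 2.46-fold lower in CD8+ than in CD4+ (adjusted p 0.0401), a call lost without any of 5 of the 6 libraries, all but Cat-Tg CD8 post-tx replicate 1 (adjusted p between 0.0664 and 0.276) and with a replicate block (-1.45, adjusted p 0.0613). In WT post-tx it was 17.9-fold lower in CD8+ (adjusted p 2.1e-06), and without WT CD8 post-tx replicate 2 the log2 difference was -3.64 (adjusted p 7.04e-06).

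**Figure D3:**
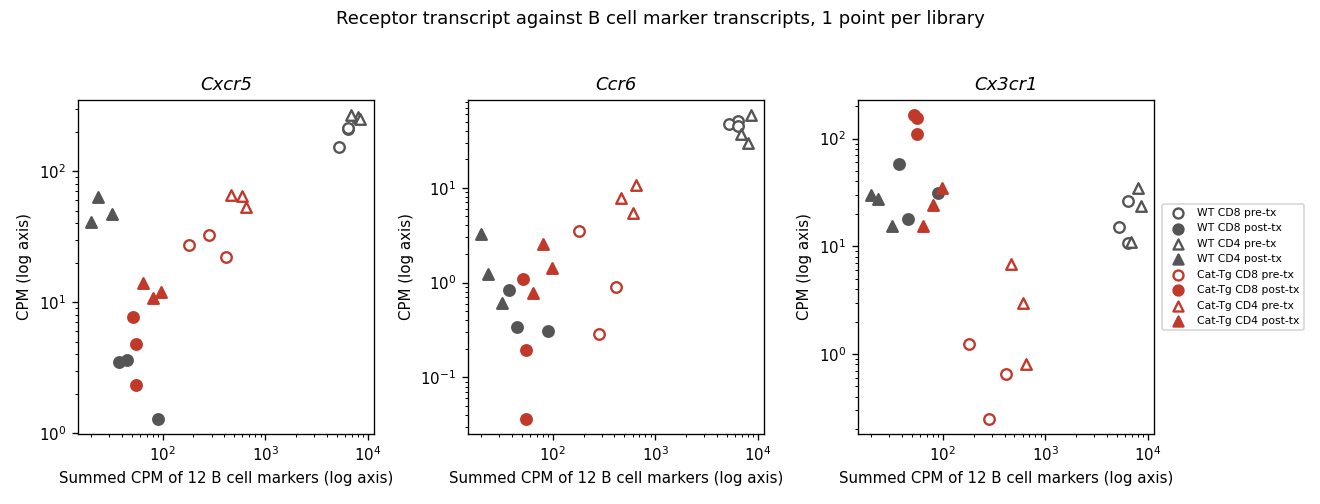
CPM of Cxcr5, Ccr6 and Cx3cr1 (y axes, log) against the summed CPM of 12 B cell markers (x axes, log) in each of 24 libraries; colour is genotype, shape is cell type and filled symbols are post-tx. The 6 libraries labelled WT pre-tx stand alone at the right, and WT CD4 post-tx lies above Cat-Tg CD4 post-tx for Cxcr5 at fewer B cell marker counts.

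By genotype, 3 receptors passed in CD8 pre-tx, all lower in Cat-Tg (Ccr6, Cxcr5 and Cx3cr1), where 8.98% of all genes passed. The study had already listed these 3 among chemokine signalling genes lower in Cat-Tg T cells. For Cx3cr1 the CD8 pre-tx libraries labelled WT held 26.6, 15 and 10.8 CPM, and the log2 difference was -4.60 (-5.38 without Cat-Tg CD8 pre-tx replicate 2). Of the 12 monocyte and macrophage markers 5 were called lower and 1 higher (median log2 difference -2.66), of 8 dendritic cell markers 3 lower (-3.42) and of 6 NK cell markers 1 lower (-2.91). The NK cell markers summed to 40.1 to 135 CPM in the libraries labelled WT and 13.6 to 22.8 CPM in Cat-Tg, and the monocyte and macrophage sums overlapped (1540 to 3240 CPM and 1260 to 3300 CPM). Their part in the Cx3cr1 difference was not tested. In CD8 post-tx 0 receptors passed in edgeR, where 1.67% of all genes did; at an unadjusted p under 0.05 it was 2, Cx3cr1 and Cxcr6, and DESeq2 and limma-voom each called 1, Cx3cr1. In CD4 pre-tx 6 passed, Ccr2, Ccr8 and Cxcr6 higher and Ccr6, Cxcr5 and Cx3cr1 lower, where 18.2% of all genes did. For Cx3cr1 the log2 difference there was -2.47, and -3.36 without Cat-Tg CD4 pre-tx replicate 2; 3 of 12 monocyte and macrophage markers and 2 of 6 NK cell markers were called lower, and their part was not tested. Cxcr3 had an adjusted p of 0.00392 there and a log2 difference of 0.99, just under the fold threshold. Of 12 T cell markers 8 were called higher in CD4 pre-tx (median log2 difference 1.33). Their part in the receptors' differences was not tested. The genotype difference itself differed between times for 3 receptors in CD8+ (10.7% of all genes) and 4 in CD4+ (21.2%). Both comparisons use the libraries labelled WT pre-tx, and the genotype, time and cell type comparisons share libraries with each other.

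**Figure D4:**
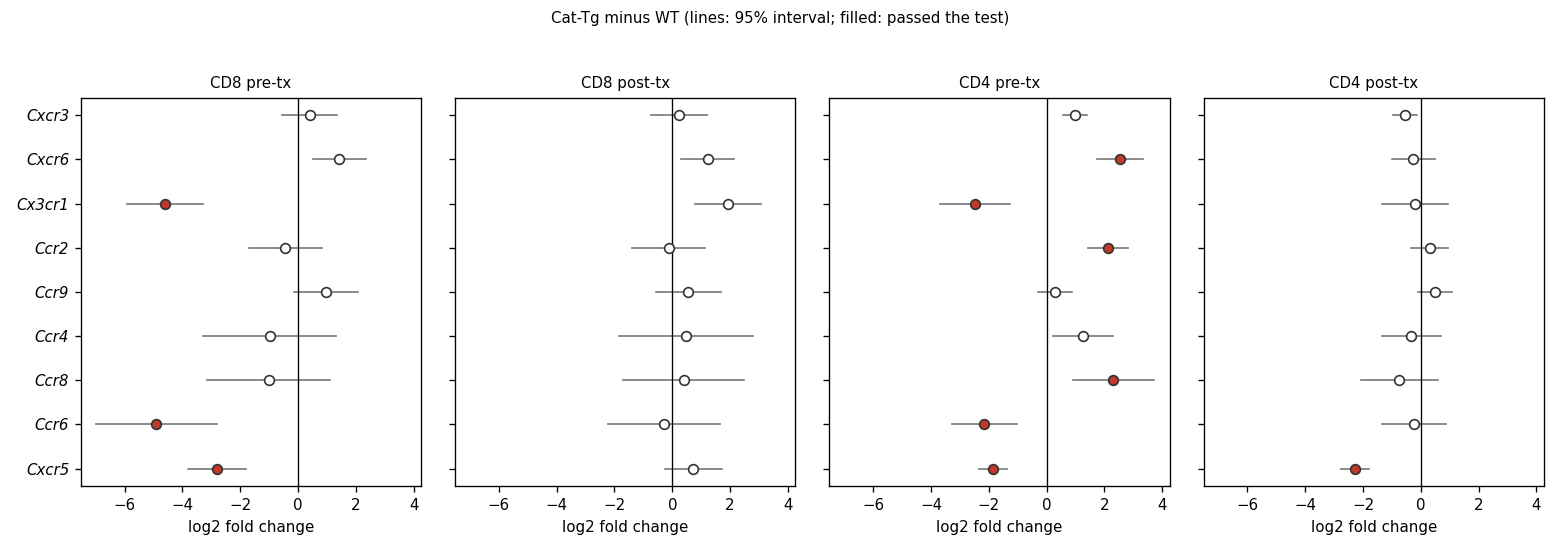
Log2 fold change of each receptor, Cat-Tg minus WT, in each cell type and time (x axis), with the 95% interval as a line; filled points passed the test. In CD4 post-tx only Cxcr5, at -2.28, is filled, and in CD8 post-tx none is, with Cx3cr1 at 1.92.

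Between cell types, 0 receptors passed in Cat-Tg pre-tx in edgeR, where 1.52% of all genes did; 7 had an unadjusted p under 0.05, DESeq2 called 5 and limma-voom 1. In Cat-Tg post-tx 4 passed (5.85% of all genes), Ccr4, Ccr9 and Cxcr5 lower and Cx3cr1 higher in CD8+. In WT post-tx 4 passed (12.8%), Ccr4, Ccr9, Cxcr5 and Cxcr6, all lower in CD8+. The libraries labelled WT pre-tx were not compared between cell types.

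Ordered by mean CPM over the 8 groups, neighbouring groups mostly overlapped. Of 7 neighbouring pairs, 5 were apart for Cxcr5, 3 for Ccr9, 2 each for Ccr2, Ccr6, Cxcr3 and Cx3cr1, 1 each for Ccr8 and Cxcr6 and 0 for Ccr4. The highest group mean exceeded the lowest 203-fold for Cx3cr1, 110-fold for Ccr6, 92.5-fold for Cxcr5 and 9.2-fold for Cxcr3, with the others between 12.8-fold and 22.2-fold. For Ccr6 and Cxcr5 the highest groups are those labelled WT pre-tx.

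Per length, in TPM (transcript abundance corrected for length), the 9 receptors summed to 755 ± 171 in Cat-Tg CD8 post-tx and 153 ± 13 in Cat-Tg CD8 pre-tx (SD, n = 3). Cxcr3 and Cxcr6 made up 46% and 43% of that sum in Cat-Tg CD8 post-tx, and Cx3cr1 5.12% ± 0.0606. In WT CD8 post-tx the sum was 322 ± 60.8 TPM, and in the CD8 pre-tx libraries labelled WT it was 327 ± 17.5 TPM. In WT CD8 post-tx Cxcr3 ranged from 20.8% to 87.6% of the sum between replicates. In the CD4 pre-tx libraries labelled WT, Cxcr5 was the largest share, at 45.5% ± 5.43.

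Of 15 ligands of these receptors, 11 were tested in CD4+ and 6 in CD8+ libraries. From pre-tx to post-tx 1, 2, 5 and 5 ligands passed in Cat-Tg CD8, WT CD8, Cat-Tg CD4 and WT CD4. Of all genes, 14.0%, 23.6%, 40.9% and 22.1% did. Ccl1, the ligand of Ccr8, rose post-tx in each of these 4 genotype and cell type groups. It reached 323, 123 and 211 CPM in WT CD4 post-tx and 88.8, 39.3 and 32.5 CPM in Cat-Tg CD4 post-tx. The means were 219 and 53.5 CPM, without overlap (log2 fold change -2.25, adjusted p 0.0171 in edgeR). Ccl1 was the 1 ligand that passed there, where 10.0% of all genes did. Cxcl9 and Cxcl10, ligands of Cxcr3, were lower in Cat-Tg CD8 post-tx than in Cat-Tg CD4 post-tx (log2 fold changes -4.33 and -4.31, adjusted p 0.00209 and 0.0218). In that comparison 4 of 11 ligands tested passed, all lower, where 5.85% of all genes passed. Monocyte markers were higher in those CD4+ libraries, and their part was not tested.

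Among 12 other chemokine receptors, Ccr7, which guides naive and central memory T cells into lymph nodes, fell post-tx in all 4 groups. In Cat-Tg CD8 it fell from 1630, 1000 and 1610 CPM to 8.99, 4.51 and 11.2 CPM (log2 fold change -7.40, adjusted p 7.83e-06 in edgeR). Of these 12, 9 were tested in CD8+ and 11 in CD4+ libraries. From pre-tx to post-tx 2, 3, 7 and 4 passed in Cat-Tg CD8, WT CD8, Cat-Tg CD4 and WT CD4. Of all genes, 14.0%, 23.6%, 40.9% and 22.1% did. Ccr3, known for eosinophils, was the 1 of these 12 that passed between Cat-Tg and WT CD4 post-tx, where 10.0% of all genes did. It stood at 35, 175 and 154 CPM against 9.99, 21.9 and 30.1 CPM (log2 fold change 2.32, adjusted p 0.0176).

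Of 20 signalling genes downstream of the receptors, all were tested. In CD8 post-tx 2 passed between Cat-Tg and WT, where 1.67% of all genes did. Both were higher in Cat-Tg. They were Dock2, an exchange factor that activates Rac in migrating lymphocytes, and its partner Elmo1. Dock2 stood at 801, 625 and 274 CPM in Cat-Tg and 126, 50.9 and 107 CPM in WT, without overlap (log2 fold change 2.49, adjusted p 0.024 in edgeR). Elmo1 stood at 239, 240 and 137 CPM and 32, 36 and 84.2 CPM (log2 fold change 1.92, adjusted p 0.0406). Whether these calls hold without WT CD8 post-tx replicate 2 or in other tools was not tested. From pre-tx to post-tx 12 of 20 passed in Cat-Tg CD8, 10 higher and 2 lower, with Prex1 (3.14) and Pik3r5 (2.39) highest and Rgs2 (-2.68) and Arrb1 (-2.64) lowest. The median log2 difference of the 20 there was 1.51, and that of all genes tested -0.26. In WT CD8 it was 5 higher and 4 lower, in Cat-Tg CD4 8 and 2, and in WT CD4 13 and 1. Of all genes tested, 14.0%, 23.6%, 40.9% and 22.1% passed in Cat-Tg CD8, WT CD8, Cat-Tg CD4 and WT CD4.

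Over the 24 libraries, the protein-coding genes most like each receptor were taken by Pearson's r of log2 CPM, as a description; the points share groups, libraries and depth. Cxcr3 was most like Il2rb (r = 0.98), Sh2d2a (0.96) and Lpcat4 (0.96). Cx3cr1 was most like Itgax (0.93), BC030867 (0.90) and Dna2 (0.90), and Itgax, which also marks dendritic cells, stood at 269, 356 and 272 CPM in Cat-Tg CD8 post-tx against 39.5, 101 and 70.9 CPM in WT CD8 post-tx (adjusted p 0.0413). The 8 dendritic cell markers, Itgax among them, summed to 271 to 361 CPM in Cat-Tg CD8 post-tx, most of it Itgax. In WT CD8 post-tx they summed to 48.2 to 112 CPM. Of the 8, 1 was called higher, Itgax, and the median log2 difference was -1.70. The part of dendritic cells in the Cx3cr1 levels was not tested. Cxcr6 was most like Prkcq, Il18r1 and Pcmt1 (0.93 each), and Ccr2 like Azin1 (0.92), Id2 (0.91) and Nabp1 (0.91). Ccr4 was most like Cd4 (0.89), Scin (0.84) and Mertk (0.82), Ccr8 like Angptl2 (0.86), Podnl1 (0.86) and Hic1 (0.84), and Ccr9 like Ifitm6 (0.86), App (0.85) and Gbp9 (0.85). Ccr6 was most like Tcf4 (0.92), Rasgef1b (0.91) and the B cell adaptor Blnk (0.91), and Cxcr5 like Fchsd2 (0.91), Foxo1 (0.90) and Zfp36l1 (0.90).

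Because the transgene is β-catenin, a partner of TCF/LEF factors, the 250 bases before the start of each receptor gene were read from RefSeq (GRCm38.p6) for motifs on both strands. The table held 9 promoters of 8 receptors, 2 of them of Ccr6; Cxcr5 was not among them. The TCF/LEF cores CTTTGAA and CTTTGAT, which share CTTTGA, matched in 2 of the 9, against 7.48% of 32851 promoters. The T-box core GGTGTGA (3.33% of promoters) and an NF-kappaB core, GGG then 2 bases of any kind then TTTCC (1.41%), matched in 0. A match is letters only and is not a binding site. The windows with a match are chr9:114496545-114496794 on the minus strand for Ccr4 and chr17:8235793-8236042 on the plus strand for Ccr6, with the match in capitals. The window of Cx3cr1, chr9:120068297-120068546 on the minus strand, is shown because that receptor had the largest change.
Ccr4: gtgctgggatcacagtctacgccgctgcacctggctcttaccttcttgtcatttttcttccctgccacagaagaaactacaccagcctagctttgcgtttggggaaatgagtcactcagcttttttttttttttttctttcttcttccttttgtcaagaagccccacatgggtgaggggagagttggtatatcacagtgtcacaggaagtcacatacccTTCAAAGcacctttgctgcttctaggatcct
Ccr6: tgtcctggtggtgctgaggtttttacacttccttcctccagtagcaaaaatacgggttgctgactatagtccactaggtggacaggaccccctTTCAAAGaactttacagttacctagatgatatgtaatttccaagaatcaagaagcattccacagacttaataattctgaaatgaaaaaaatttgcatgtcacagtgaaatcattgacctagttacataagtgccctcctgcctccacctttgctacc
Cx3cr1: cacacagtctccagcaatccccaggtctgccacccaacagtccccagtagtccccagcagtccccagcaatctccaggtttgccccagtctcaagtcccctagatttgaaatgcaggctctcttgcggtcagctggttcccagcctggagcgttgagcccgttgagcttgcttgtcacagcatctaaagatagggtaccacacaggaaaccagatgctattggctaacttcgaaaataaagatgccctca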

How the data were processed

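RNA sequencing of 24 libraries (8 groups of 3) was analysed, made by the labels with a SMART-Seq kit and Nextera XT. For each transcript the authors deposited the kallisto 0.46.2 estimated count, which is not normalized, and the TPM, which the authors' tool scales by effective length; lengths and effective lengths (unit: other) are deposited beside them. The processing notes also name limma and the mm9 build; the transcript index is not given in the sources used here. Of 117497 transcripts, 116428 matched GENCODE M21 by identifier, without version (1069 did not), holding 99.64% to 99.76% of each library's counts. Counts were summed to 35868 symbols and rounded, with library totals of 11135713 to 50519825.

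In R 4.3.3, edgeR 4.0.16 (TMM, robust quasi-likelihood, Benjamini-Hochberg) fitted the 12 libraries of a cell type (15975 genes in CD8+, 17243 in CD4+), or all 24 (19092) for CD8+ against CD4+, on genes over 1 CPM in at least 3 libraries. This differs from the study's voom on TPM because a count test needs counts. Levels are CPM with TMM factors over all 24 libraries. Standard errors were derived from the F statistic of each test. The steps were tested on simulated data. The members, lists and tests were chosen with earlier results of these data known. Named genes are all 9 members, the 3 genes most like each (mean of at least 5 CPM), and at most 4 called genes of a list per comparison, those with the highest and lowest fold changes. Alternatives were DESeq2 1.42.0, limma-voom (limma 3.58.1), DESeq2's size factors, other filters and fold thresholds, length-scaled TPM, each library left out, a replicate block, only the 6 libraries compared and, chosen after seeing the data, leaving out the libraries labelled WT pre-tx. Protein sequences were not analysed here.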

Additional observations from a re-analysis of the deposited data

Results flagged for a closer look

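The genotype difference (Cat-Tg minus WT) changed between times, or the time change differed between cell types, by a test of the difference itself (an interaction in edgeR's quasi-likelihood test), for 10 receptor results. In CD8+ cells, post-tx minus pre-tx, the difference was 6.52 on the log2 scale for Cx3cr1 (SE 0.878, adjusted p 0.000503), 4.61 for Ccr6 (SE 1.4, adjusted p 0.0459) and 3.53 for Cxcr5 (SE 0.711, adjusted p 0.00558). In CD4+ cells it was -1.82 for Ccr2 (SE 0.477, adjusted p 0.0147), -3.05 for Ccr8 (SE 0.983, adjusted p 0.0372), -1.52 for Cxcr3 (SE 0.302, adjusted p 0.00282) and -2.80 for Cxcr6 (SE 0.551, adjusted p 0.00274). Leaving out 1 library moved Cx3cr1 to 7.42 (without Cat-Tg CD8 pre-tx replicate 2) and 7.28 (without WT CD8 post-tx replicate 3), Ccr6 to between 2.76 (without Cat-Tg CD8 post-tx replicate 1) and 6.24 (without Cat-Tg CD8 pre-tx replicate 2), Ccr8 to between -4.28 and -2.12 (without WT CD4 pre-tx replicate 3 and 1), and Cxcr6 to -2.14 (without WT CD4 pre-tx replicate 1). These 7 use the libraries labelled WT pre-tx, whose B cell and T cell markers differ from the other libraries; the part of that was not tested. Cxcr5 in CD8+ missed the threshold with length-scaled TPM (2.49, adjusted p 0.0973). Ccr6 missed the threshold in 7 of 12 fits with 1 library left out (adjusted p between 0.0657 and 0.267), Ccr8 in 8 of 12 (0.0587 to 0.0902), and Ccr2 without the library labelled WT CD4 pre-tx replicate 1 or 3 (0.0838 to 0.0873).

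The other 3 use no such contrast. For Cxcr5 the post-tx genotype difference was 0.73 and not called in CD8+ and -2.28 and called in CD4+, and the signed contrast of CD8+ minus CD4+ was 2.86 (SE 0.54, adjusted p 0.0126). The Cat-Tg change from pre-tx to post-tx differed between CD8+ and CD4+ by -4.72 for Ccr9 (SE 0.663, adjusted p 0.00055) and by 4.87 for Cx3cr1 (SE 0.917, adjusted p 0.00644), with Cx3cr1 at 5.65 without Cat-Tg CD8 pre-tx replicate 2, 5.46 without Cat-Tg CD4 pre-tx replicate 3 and 4.15 without Cat-Tg CD4 pre-tx replicate 2.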

How the results depend on the processing

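Of 2400 alternative values, 2171 kept their direction and side of the threshold, 93 lost and 45 gained a call, and 91 changed sign, 0 of them for a called difference. Of 54 called differences, 14 lost their call when 1 library was left out.

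At a log2 threshold of 2, 3 receptors passed for Cat-Tg CD4 post-tx against pre-tx and 2 for the CD4 change in genotype difference. Between Cat-Tg and WT CD8 post-tx, 1 passed in DESeq2, limma-voom and without a filter. For the CD8 change in genotype difference it was 1 with length-scaled TPM. For CD8 against CD4 in Cat-Tg pre-tx it was 5 in DESeq2, 3 with only the 6 libraries compared, and 1 each in limma-voom, with a replicate block and without the WT pre-tx libraries. For the CD8 minus CD4 post-tx genotype difference it was 0 in limma-voom, with length-scaled TPM and with a replicate block, and for the Cat-Tg time difference 1 in limma-voom. The causes were not tested. Leaving out 1 library gave 4 to 6 receptors for Cat-Tg CD8 over time, 5 to 6 for WT CD8, 7 to 8 for WT CD4, 4 to 6 for CD4 pre-tx, 0 to 1, 2 to 4 and 3 to 5 for CD8 against CD4 (Cat-Tg pre-tx, Cat-Tg post-tx, WT post-tx), 2 to 3 and 2 to 4 for the CD8 and CD4 changes in genotype difference, and 0 to 1 for the post-tx one.

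By the methods CD4+ and CD8+ libraries share mice, but no source used here says that equal numbers mark 1 mouse, and in no comparison did all 3 pairs correlate over 0.1 (CD8 pre-tx: 0.14, 0.18 and 0.06, each library best with its own number), so the replicate block was not the main design. It ended 4 calls, those of Cxcr5 and Cxcr6 given in the report and the CD8 change in genotype difference of Ccr6 (4.40, adjusted p 0.0878), and made 1, Cx3cr1 for CD8 against CD4 in Cat-Tg pre-tx (-2.16, adjusted p 0.0448).

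Log2 differences that were not called changed sign as follows. For post-tx against pre-tx in Cat-Tg CD8, these were Ccr4 at -0.04 (DESeq2's size factors), -0.04 (DESeq2), -0.72 (limma-voom), -0.52 (replicate block). For Cat-Tg minus WT in CD8 pre-tx, these were Ccr8 at 0.01 (limma-voom). For Cat-Tg minus WT in CD8 post-tx, these were Ccr2 at 0.44 (limma-voom), 0.08 (length-scaled TPM), 0.15 (replicate block), and Ccr4 at -0.16 (replicate block). For post-tx minus pre-tx of the genotype difference, CD8, these were Cxcr3 at 0.23 (limma-voom), 0.09 (length-scaled TPM), 0.01 (replicate block), and Ccr9 at 0.11 (length-scaled TPM). For Cat-Tg minus WT in CD4 post-tx, these were Ccr6 at 0.03 (limma-voom). For post-tx against pre-tx in WT CD4, these were Cx3cr1 at -0.05 (the stricter filter). For post-tx minus pre-tx of the genotype difference, CD4, these were Ccr9 at -0.05 (length-scaled TPM). For CD8 against CD4 in WT post-tx, these were Ccr2 at -0.49 (limma-voom), -0.01 (the stricter filter), -0.49 (replicate block), -0.06 (no WT pre-tx library). For CD8 minus CD4 of the post-tx genotype difference, these were Ccr9 at 0.22 (limma-voom), 0.04 (no filter), 0.33 (length-scaled TPM), 0.28 (replicate block), 0.06 (no WT pre-tx library), and Ccr2 at 0.07 (replicate block). For CD8 against CD4 in Cat-Tg post-tx, these were Cxcr6 at 0.03 (no filter), 0.01 (length-scaled TPM), 0.04 (replicate block). For CD8 minus CD4 of the Cat-Tg post-tx minus pre-tx difference, these were Cxcr6 at -0.01 (the stricter filter), and Ccr6 at -0.37 (length-scaled TPM).

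With 1 library left out, uncalled differences that changed sign ranged as follows. For post-tx against pre-tx in Cat-Tg CD8, the range was Ccr4 -1.60 to 0.53. For post-tx minus pre-tx of the genotype difference, CD8, the range was Ccr2 -0.09 to 1.59, Ccr4 -0.17 to 2.47, Ccr9 -0.66 to 0.67, Cxcr3 -0.36 to 0.88, Cxcr6 -0.47 to 0.32. For Cat-Tg minus WT in CD8 post-tx, the range was Ccr2 -0.52 to 1.08, Ccr4 -1.16 to 1.36, Ccr6 -2.14 to 0.52, Cxcr3 -0.05 to 1.19. For Cat-Tg minus WT in CD4 pre-tx, the range was Ccr9 -0.07 to 0.52. For post-tx against pre-tx in Cat-Tg CD4, the range was Ccr4 -0.13 to 0.61. For post-tx minus pre-tx of the genotype difference, CD4, the range was Ccr9 -0.02 to 0.75, Cxcr5 -0.59 to 0.02. For Cat-Tg minus WT in CD4 post-tx, the range was Ccr6 -0.78 to 0.57, Cxcr6 -0.53 to 0.13, Cx3cr1 -0.48 to 0.03. For post-tx against pre-tx in WT CD4, the range was Cx3cr1 -0.31 to 0.56. For CD8 minus CD4 of the Cat-Tg post-tx minus pre-tx difference, the range was Ccr4 -1.91 to 0.02, Ccr6 -1.40 to 2.01, Cxcr5 -0.61 to 0.28, Cxcr6 -0.22 to 0.43. For CD8 against CD4 in Cat-Tg post-tx, the range was Cxcr6 -0.33 to 0.33. For CD8 minus CD4 of the post-tx genotype difference, the range was Ccr2 -1.29 to 0.48, Ccr4 -0.93 to 1.34, Ccr6 -2.02 to 0.53, Ccr9 -0.69 to 0.76. For CD8 against CD4 in WT post-tx, the range was Ccr2 -0.83 to 0.87, Cxcr3 -0.16 to 1.15.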

Other observations

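Across the 24 libraries, as a description over points that share groups and depth, log2 CPM of Ccr2 and Cxcr6 correlated at r = 0.89, Ccr6 and Cxcr5 at 0.86, and Cxcr3 and Cxcr5 at -0.80. The 20 signalling genes summed to 12200, 13100 and 12300 CPM in Cat-Tg CD8 post-tx and to 4050, 14800 and 8910 CPM in WT CD8 post-tx, where the replicate with the highest sum is also the one with the highest Cxcr3, at 934 CPM.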
